A study of Mus musculus with 6 samples.

Results

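DNA replication and S phase genes are described here in mouse CD8 cytotoxic T lymphocytes (CTL) that carried either a retrovirus encoding GFP-KLF2 or the empty vector, evGFP. The set holds 33 genes of 18193 measured. A gene entered when it is one of the 33 listed replication or S phase genes and at least 1 probe set was annotated to it alone. This gave 81 probe sets of 34945 annotated to 1 gene, and the brightest probe set stood for the gene. Both groups were splenocytes of P14 LCMV TCR transgenic C57BL/6 mice aged 8 to 12 weeks. They were stimulated with gp33-41 peptide for 48 hours, transduced at 18 hours and kept for a further 48 hours in IL-2, and RNA was taken from sorted GFP-positive cells at day 4. The IL-2 time and day are those of the sample labels, and a legend of the study gives a longer time in IL-2 for this experiment. GFP-KLF2 cells (GFP-KLF2pos in the study's naming) expressed a GFP fusion of KLF2, a zinc finger transcription factor of quiescent T cells. The evGFP cells (GFPpos) expressed GFP alone. Each group had 3 arrays labelled as biological replicates, and no label says whether they came from separate animals, so that p-values measure the spread between these arrays.

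To copy its genome once per cycle, a cell first loads the MCM2 to MCM7 helicase onto origins during G1, with the help of the origin recognition complex, CDC6 and CDT1. At S phase entry cyclin E with its kinase and the E2F transcription factors are active, CDC45 and the GINS complex join the helicase, and polymerase alpha with primase starts each new strand. Activated CD8 T cells divide many times in a short period, and resting T cells hold most of these proteins at low levels.

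The array signals reported here are log2 intensities, and differences are GFP-KLF2 minus evGFP on that scale. Arrays correlated at 0.993 to 0.996 within a group and at 0.982 to 0.990 between groups. The 7 measured markers of CD8 T cells were bright, and Cd3d, Cd3e, Cd3g, Cd2 and Thy1 among them are shared with other T cells. Summed linear intensities of the 7 were 50477 to 53485 in GFP-KLF2 arrays and 46966 to 49774 in evGFP arrays, and 1, Cd8b1, rose. The 2 CD4 T cell markers summed to 308 to 344 against 236 to 281, and 1 of them, Zbtb7b, rose. Those of B cells summed to 301 to 430 against 300 to 334, and those of myeloid and dendritic cells to 301 to 333 against 270 to 307. The part of these levels in the results was not tested. As a measure of RNA integrity, 3′ probes of the Actb control exceeded its 5′ probes by 0.0773 to 0.0837 in GFP-KLF2 arrays and 0.111 to 0.121 in evGFP arrays. Its part in the results was not tested. The same quantity for Gapdh was -0.169 to -0.139 in GFP-KLF2 arrays and -0.179 to -0.116 in evGFP arrays, which overlap. The construct itself could not be checked on these arrays, since the array's Klf2 probes do not read it. By qRT-PCR, the study found KLF2 mRNA of sorted GFP-KLF2 cells at a level like that of naive T cells. In bulk RNA, fewer cells in S phase and less RNA per cell cannot be told apart. In separate assays, the study saw no major difference in DNA content between GFP-KLF2 cells and GFP-negative cells of the same cultures. It also reports a lower rate of DNA synthesis and slower expansion of GFP-KLF2 cells than of control cells.

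Promoter sequences are shown first, because many of these genes carry a spelling that E2F proteins are known to bind. Of the 33 genes, 28 had a promoter in the RefSeq table of GRCm38.p6, which holds 250 bases before and 50 after a transcript start. Gins2, Rfc2, Mcm4, Ccne2 and Usp1 had none. The 4 spellings TTTCCCGC, TTTGGCGC, TTTCGCGC and TTTGCCGC were searched on both strands. At least 1 occurred in 13 of the 28 promoters (46.4%), against 550 of 14452 measured genes with a promoter (3.81%) and 704 of all 27025 genes in the table (2.6%). Matches overlapped in Mcm5 and Mcm6, where neighbouring matches on opposite strands share bases.

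One window of 30 bases is shown for each of 8 genes, chosen to span helicase subunits, origin licensing, repair and chromatin. Bases run 5′ to 3′ on the gene's strand, and capitals mark the 8 matching bases, which read as the reverse complement where the match lies on the other strand.
Mcm5: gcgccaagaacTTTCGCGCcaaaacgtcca
Mcm6: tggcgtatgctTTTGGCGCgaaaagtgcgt
Orc1: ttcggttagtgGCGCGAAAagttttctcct
Cdc6: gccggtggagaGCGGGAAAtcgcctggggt
Dtl: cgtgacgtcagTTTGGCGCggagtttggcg
Hells: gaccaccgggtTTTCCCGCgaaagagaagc
Uhrf1: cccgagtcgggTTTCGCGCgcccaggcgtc
Cdca7: tgcgtcccggcGCGGGAAAgccggtggccc

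These windows lie, in GRCm38.p6, at chr8:75109345-75109374 (plus strand) for Mcm5, chr1:128359797-128359826 (minus) for Mcm6 and chr4:108579416-108579445 (plus) for Orc1. Those of Cdc6 and Dtl are at chr11:98908002-98908031 (plus) and chr1:191575534-191575563 (minus). Hells, Uhrf1 and Cdca7 have theirs on the plus strand, at chr19:38930917-38930946, chr17:56304117-56304146 and chr2:72476137-72476166. The 18 matches in the 13 promoters began between positions -185 and 38, with the transcript start as 0. Of them, 5 lay in the 100 bases before the start and 5 after it. A match is a description of the sequence and not evidence of binding.

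**Figure D1:**
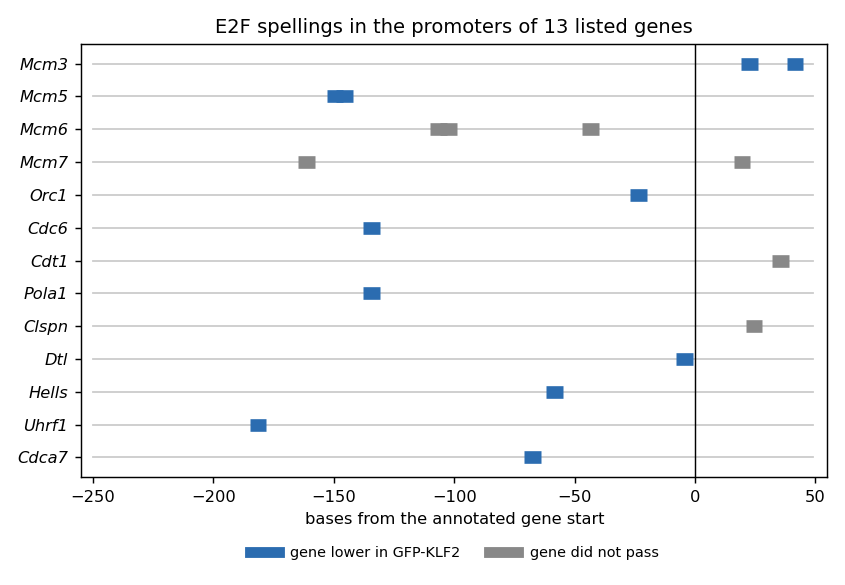
Position of each E2F spelling, in bases from the transcript start (horizontal axis, 0 is the start), for the 13 genes with a match (vertical axis). Matches spread from -185 to 38, and 5 of 18 lie after the start.

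Other motifs of promoters were counted in the same way. CCAAT occurred on either strand in 64.3% of the 28 promoters, against 42% of measured genes. The GC box GGGCGG occurred in 75% against 57.3%, the CACCC box CCACCC, of the kind KLF proteins bind, in 42.9% against 40.3%, and the CHR element TTTGAA in 17.9% against 15.7%.

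The comparison asked whether replication transcripts differed in CTL made to express KLF2 after activation. Of the 33 genes, 15 fell in GFP-KLF2 cells at an adjusted p under 0.046 (limma, Benjamini-Hochberg over 45037 probe sets), 0 rose and 18 did not pass. Over all 18193 genes, 8.35% fell and 6.22% rose by the same rule. Among the 8587 genes at least as bright as the dimmest of the 33, 15.4% fell and 10.7% rose. Those 8587 genes are not matched in level, with a median log2 intensity of 9.32 against 11.22 for the 33. Without adjustment, at p under 0.05, 22 of the 33 were lower and 1 was higher, against 17.7% and 12% of all genes. That gene, Ccne1, rose with the replicate number as a block, with cyclic loess, with an intensity trend in the variance and with the mean of its probe sets.

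Most of these differences were small. The median over the 33 genes was -0.25, with a range of -1.07 to 0.31. It was -0.01 over all genes and -0.08 over those at least as bright as the dimmest of the 33. Differences were negative for 27 genes and positive for 6. Of all 18193 genes, 9392 were negative, as were 5138 of the 8587 at least as bright as the dimmest of the 33. In 24 genes every GFP-KLF2 array lay below every evGFP array, which held for 20.6% of all genes. In 3 genes (Rrm2, Ccne1 and E2f8) every GFP-KLF2 array lay above, against 14.3% of all genes. By replicate number, the 3 pairs of arrays gave medians of -0.26, -0.27 and -0.27, and 27 of the 33 genes were negative in all 3 pairs. That held for 5491 of all 18193 genes and for 4028 of the 8587 brighter ones. Ung and Cdca7 alone fell at least 2-fold, as 0.715% of all genes did.

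The count of 15 depended on the number of arrays and on the scaling. With cyclic loess between arrays it was 8, without Mcm2, Mcm3, Mcm4, Cdc6, Fen1, Rrm1 and Dtl, and 5.28% of all genes fell. Without GFP-KLF2 replicate 1, 2 or 3 it was 5, 3 and 7, and without evGFP replicate 1, 2 or 3 it was 3, 3 and 8, with 3.24% to 6.2% of all genes falling in those fits. Ung and Cdca7 passed in all 6 of them, at adjusted p of 0.00132 to 0.00948. Orc1 and Hells passed in 4. Uhrf1 passed in 3 and lost the call without GFP-KLF2 replicate 2, evGFP replicate 1 or evGFP replicate 2. Pola1 passed in 2, those without GFP-KLF2 replicate 1 or evGFP replicate 3. Mcm2 and Mcm5 passed only without evGFP replicate 3, and Gins2 and Rrm1 only without GFP-KLF2 replicate 3. Mcm3, Mcm4, Cdc6, Fen1 and Dtl passed in none, at adjusted p of 0.0548 to 0.137.

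**Figure D2:**
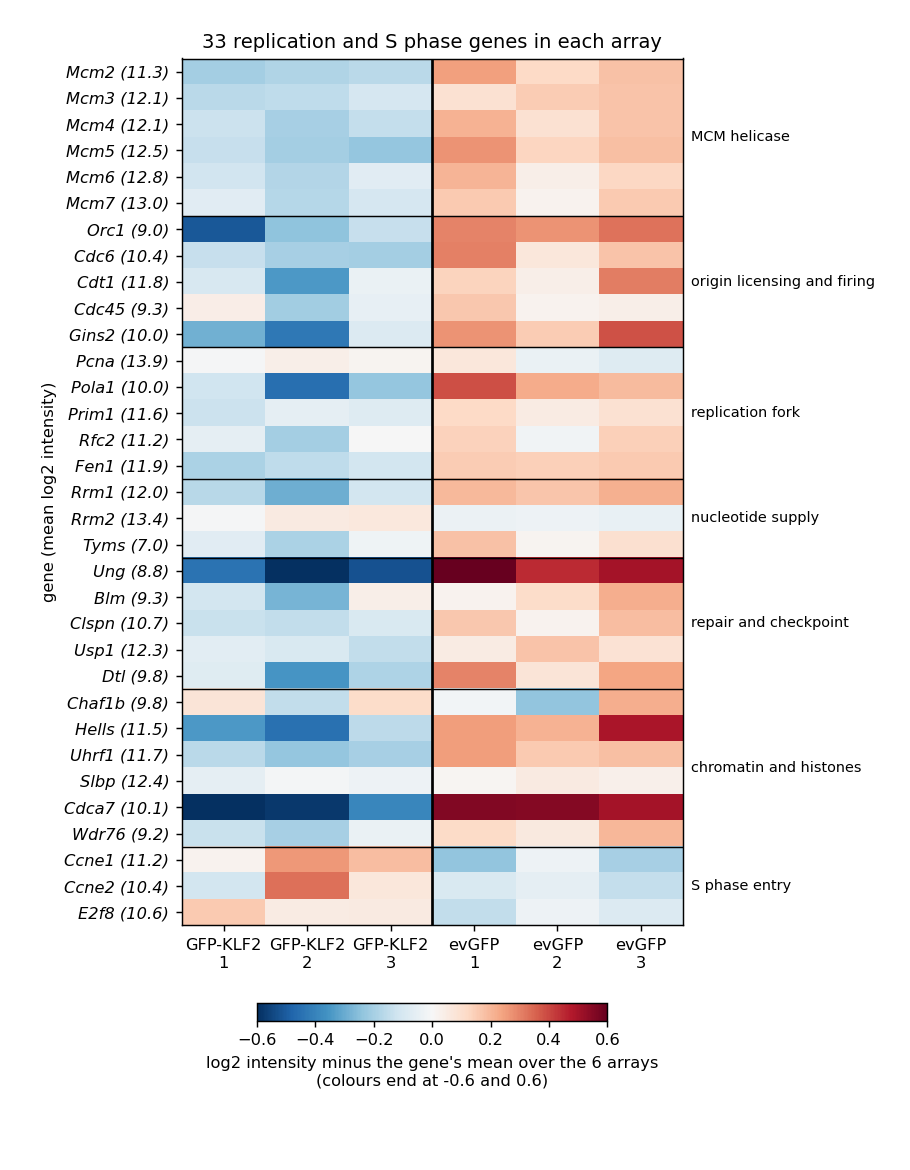
Log2 intensity of each of the 33 genes in each array, minus the gene's mean over the 6 arrays, ordered by role, with GFP-KLF2 arrays left of evGFP arrays. Ung and Cdca7 show the deepest contrast, and the S phase entry genes Ccne1, Ccne2 and E2f8 run the other way.

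Cdca7 and Ung fell most. CDCA7 is a zinc finger protein that works with the remodeler HELLS in DNA methylation, and Cdca7 is an E2F and MYC target. Its intensities were 9.48, 9.54 and 9.73 in GFP-KLF2 cells, against 10.67, 10.67 and 10.62 in evGFP cells. The evGFP arrays lay close together, and the highest GFP-KLF2 array was far below the lowest of them. The difference was -1.07 ± 0.09 (SE, n = 3 each), or 47.5% of the evGFP level (limma, adjusted p = 0.001). A dim second probe set, at a mean of 4.35, gave -0.03.

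Ung encodes uracil-DNA glycosylase, which removes uracil from newly made DNA and, in B cells, from deaminated antibody genes. It measured 8.36, 8.17 and 8.28 in GFP-KLF2 cells, against 9.46, 9.25 and 9.31 in evGFP cells. The groups were again far apart, and replicate 1 was the highest array in each. The difference was -1.07 ± 0.09 (SE, n = 3 each), or 47.7% of the evGFP level (limma, adjusted p = 0.00114). The pairs of arrays with the same number differed by -1.10, -1.08 and -1.02.

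All 6 subunits of the MCM helicase were lower in each GFP-KLF2 array than in any evGFP array, which held for 20.6% of all genes. Of the 8587 genes at least as bright as the dimmest of the 33, it held for 3011. By the test 4 of the 6 fell, beside 8.35% of all genes and 15.4% of those 8587, and the median over the 6 was -0.30. Mcm5, with 12.39, 12.33 and 12.30 in GFP-KLF2 cells against 12.80, 12.66 and 12.71 in evGFP cells, fell by 0.38 ± 0.08 to 76.7% of the evGFP level (SE, n = 3 each, limma adjusted p = 0.0196). Mcm2 stood at 11.09, 11.11 and 11.13 against 11.53, 11.41 and 11.47, and fell by 0.36 ± 0.07 to 77.9% (limma, adjusted p = 0.0203). In both genes the GFP-KLF2 arrays varied less among themselves than the gap to evGFP.

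Mcm4 fell to 80.5% of the evGFP level, with 11.94, 11.87 and 11.93 in GFP-KLF2 cells against 12.27, 12.16 and 12.24 in evGFP cells (limma, adjusted p = 0.0341). Mcm3 fell to 82.5%, with 11.94, 11.95 and 12.00 against 12.20, 12.26 and 12.27 (limma, adjusted p = 0.0449), and lost the call with the replicate number as a block, at an adjusted p of 0.0479. Mcm6 and Mcm7 did not pass, at -0.24 (95% interval -0.43 to -0.06, limma adjusted p = 0.0991) and -0.22 (-0.41 to -0.04, adjusted p = 0.118). The intervals of the 6 subunits overlap one another, so that the subunits that passed are not shown to differ from those that did not.

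**Figure D3:**
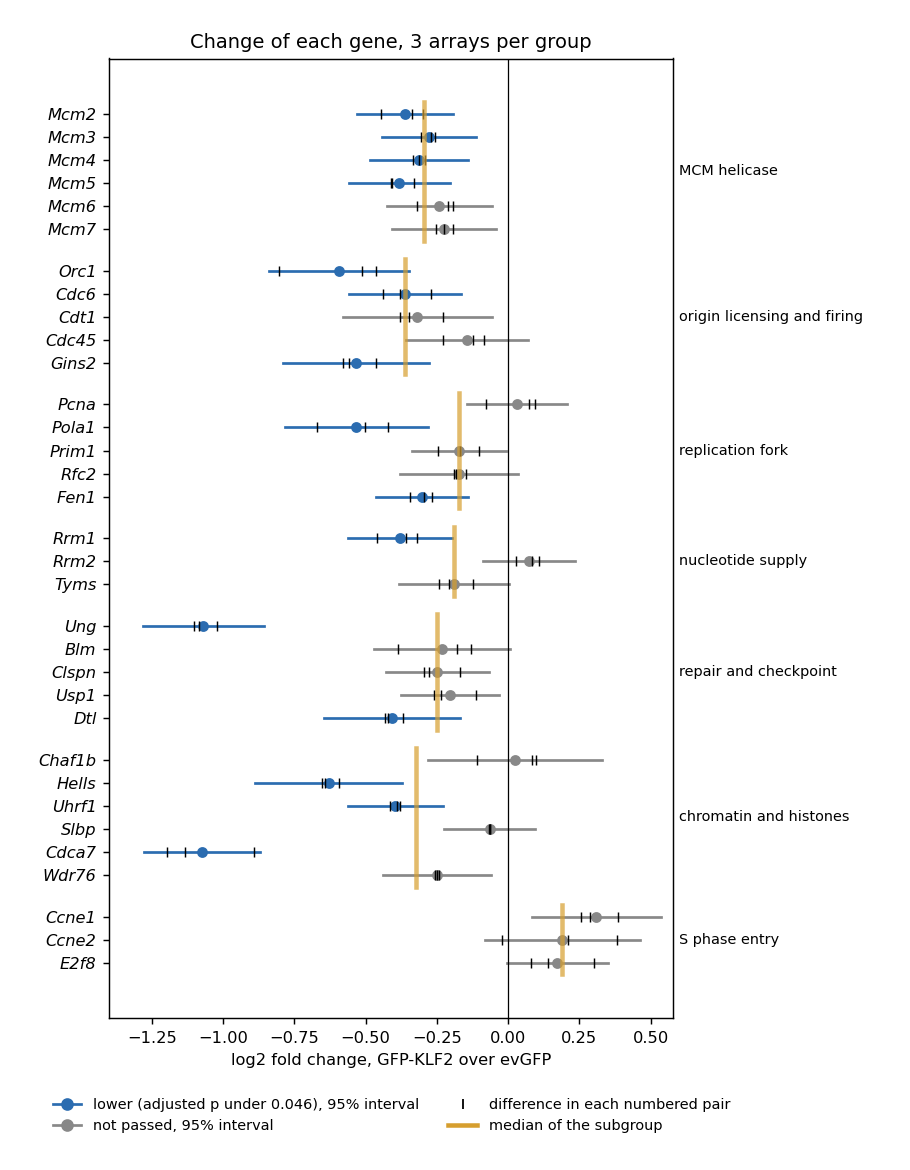
Log2 difference, GFP-KLF2 minus evGFP, of each of the 33 genes with its 95% interval, grouped by role. Blue marks genes that fell at an adjusted p under 0.046, and grey those that did not pass. All 6 MCM genes lie between -0.38 and -0.22, and the 3 S phase entry genes lie right of 0.

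Of the 5 genes of origin licensing and firing, 3 fell, beside 8.35% of all genes. All 5 were negative, beside 9392 of all 18193 genes, with a median of -0.36. Orc1, the subunit of the origin recognition complex that is made anew in each cycle in human cells, measured 8.51, 8.78 and 8.88 in GFP-KLF2 cells against 9.32, 9.29 and 9.35 in evGFP cells. It fell by 0.59 ± 0.11 to 66.3% of the evGFP level (limma, adjusted p = 0.0134). GFP-KLF2 replicate 1 was the lowest, and the evGFP arrays lay close together. The call was lost without evGFP replicate 1 or 2, at an adjusted p of at most 0.0504. A second Orc1 probe set was at -0.28 and did not pass (adjusted p = 0.11).

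Gins2, a subunit of the GINS complex that activates the helicase, measured 9.67, 9.53 and 9.87 in GFP-KLF2 cells against 10.23, 10.11 and 10.34 in evGFP cells. It fell by 0.53 ± 0.11 to 69.1% (limma, adjusted p = 0.0223), and its second probe set, also at -0.53, passed as well. In each group replicate 2 was lowest and replicate 3 highest. Cdc6, a loader of the helicase, measured 10.22, 10.15 and 10.15 against 10.66, 10.42 and 10.53 and fell by 0.36 ± 0.08 to 77.8% (limma, adjusted p = 0.0334). Neither gene's groups overlapped.

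Cdt1, the partner of CDC6 in loading, measured 11.72, 11.47 and 11.78 in GFP-KLF2 cells against 11.95, 11.85 and 12.13 in evGFP cells. The difference of -0.32 (95% interval -0.58 to -0.06) did not pass (limma, adjusted p = 0.123), but with the replicate number as a block it did, at an adjusted p of 0.0367. Cdc45, which joins the helicase when an origin fires, overlapped between groups at -0.15 (-0.36 to 0.07, adjusted p = 0.404).

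Among 5 genes of the replication fork, 2 fell, beside 8.35% of all genes. Pola1, the catalytic subunit of polymerase alpha, measured 9.91, 9.58 and 9.80 in GFP-KLF2 cells against 10.41, 10.25 and 10.22 in evGFP cells. It fell by 0.53 ± 0.11 to 69.1% of the evGFP level (limma, adjusted p = 0.0206). A dim second probe set gave 0.14, and with the mean of both the gene did not pass (-0.20, adjusted p = 0.0917). Fen1, the flap endonuclease that trims Okazaki fragments, measured 11.70, 11.75 and 11.79 against 12.05, 12.04 and 12.05, and fell by 0.30 ± 0.07 to 81.1% (limma, adjusted p = 0.032). The evGFP arrays of Fen1 were nearly identical, and the gene's second probe set also passed, at -0.37.

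Pcna, the sliding clamp of the fork, measured 13.92, 13.96 and 13.94 in GFP-KLF2 cells against 14.00, 13.89 and 13.85 in evGFP cells. The groups overlapped, and the difference was 0.03 (95% interval -0.14 to 0.20, limma adjusted p = 0.865). These values are near the top of the range of the arrays, whose highest probe sets lay at 14.97 to 15.04. Prim1, the catalytic subunit of primase, was at -0.17 (-0.34 to -0.01, adjusted p = 0.179), and Rfc2, of the complex that loads the clamp, at -0.17 (-0.38 to 0.03, adjusted p = 0.293).

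Of the 3 genes of nucleotide supply, 1 fell, beside 8.35% of all genes. Ribonucleotide reductase, which makes deoxynucleotides, has a large and a small subunit. Rrm1, the large subunit, measured 11.79, 11.66 and 11.84 in GFP-KLF2 cells against 12.15, 12.12 and 12.17 in evGFP cells. It fell by 0.38 ± 0.08 to 76.9% of the evGFP level (limma, adjusted p = 0.0225). Rrm2, the small subunit whose protein follows the cycle, measured 13.43, 13.49 and 13.50 against 13.41, 13.41 and 13.39. Every GFP-KLF2 array was thus slightly higher. The difference was 0.07 (95% interval -0.09 to 0.23, limma adjusted p = 0.607), and the gene's other probe sets gave 0.01 and 0.11. The interval of Rrm2 does not reach that of Rrm1, which was -0.56 to -0.20, although the difference between the 2 genes was not itself tested. Tyms, thymidylate synthase, was the dimmest of the 33 and stood at -0.19 (-0.38 to 0.0024, adjusted p = 0.208).

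Apart from Ung, 1 of the 4 other repair and checkpoint genes fell, beside 8.35% of all genes. Dtl, the CRL4 ubiquitin ligase subunit that marks CDT1 for destruction in S phase, measured 9.75, 9.47 and 9.64 in GFP-KLF2 cells against 10.12, 9.90 and 10.06 in evGFP cells. It fell by 0.41 ± 0.10 to 75.4% (limma, adjusted p = 0.0426), and its 5 other probe sets ranged from -0.56 to -0.34, of which 1 passed, and 4 with the replicate number as a block. Clspn, an adaptor for the kinase CHK1, was at -0.25 (95% interval -0.43 to -0.07, adjusted p = 0.087). Blm, a RecQ helicase, stood at -0.23 (-0.47 to 0.01, adjusted p = 0.218), and Usp1, a deubiquitinase of PCNA, at -0.20 (-0.38 to -0.03, adjusted p = 0.134).

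Of the 6 genes of chromatin and histones, 3 fell, beside 8.35% of all genes. These were Cdca7, Hells and Uhrf1, and the products of all 3 act in DNA methylation. Hells, the remodeler, measured 11.13, 11.02 and 11.31 in GFP-KLF2 cells against 11.72, 11.68 and 11.96 in evGFP cells. It fell by 0.63 ± 0.11 to 64.6% of the evGFP level (limma, adjusted p = 0.0131), with pairs at -0.59, -0.65 and -0.64. In both groups replicate 2 was the lowest array and replicate 3 the highest. The call was lost without GFP-KLF2 replicate 1 or 2, at an adjusted p of at most 0.0503.

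Uhrf1, which brings the methyltransferase DNMT1 to newly copied DNA, measured 11.57, 11.50 and 11.53 in GFP-KLF2 cells against 11.98, 11.89 and 11.91 in evGFP cells, and fell by 0.40 ± 0.07 to 76.0% (limma, adjusted p = 0.0143). The spread within each group was well under the gap between them. The remaining 3 genes of this role did not pass. Wdr76, a WD repeat protein, was at -0.25 (95% interval -0.44 to -0.06, adjusted p = 0.0971). Slbp, which binds the stem-loop of histone mRNA, was at -0.06 (-0.22 to 0.09, adjusted p = 0.649), and Chaf1b, of the histone chaperone CAF-1, at 0.02 (-0.28 to 0.33, adjusted p = 0.944).

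All 3 genes of S phase entry had positive differences, with a median of 0.19, and none passed the test. The 8 other listed genes of this role had a median of -0.23, with 6 negative, 2 that fell and 1 that rose. Over all 18193 genes, 9392 were negative and 8801 positive, and 8.35% fell and 6.22% rose. Ccne1, cyclin E1, measured 11.23, 11.47 and 11.39 in GFP-KLF2 cells against 10.97, 11.18 and 11.01 in evGFP cells, so that the lowest GFP-KLF2 array lay just above the highest evGFP array. The difference of 0.31 (95% interval 0.08 to 0.53) did not pass (limma, adjusted p = 0.0861). With the replicate number as a block it did, at 0.0381, when 12.1% of all genes fell and 8.58% rose. A second Ccne1 probe set differed by 0.35 and passed at an adjusted p of 0.04599, but not with any 1 array left out.

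Ccne2, cyclin E2, measured 10.30, 10.74 and 10.48 in GFP-KLF2 cells against 10.32, 10.36 and 10.27 in evGFP cells. The groups overlapped, with GFP-KLF2 replicate 2 apart from the rest, and the difference was 0.19 (95% interval -0.08 to 0.46, limma adjusted p = 0.39). E2f8, an E2F family repressor, was at 0.17 (-0.0035 to 0.35, adjusted p = 0.211), with every GFP-KLF2 array above every evGFP array. Whether the S phase entry genes differ from the MCM genes was not tested.

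**Figure D4:**
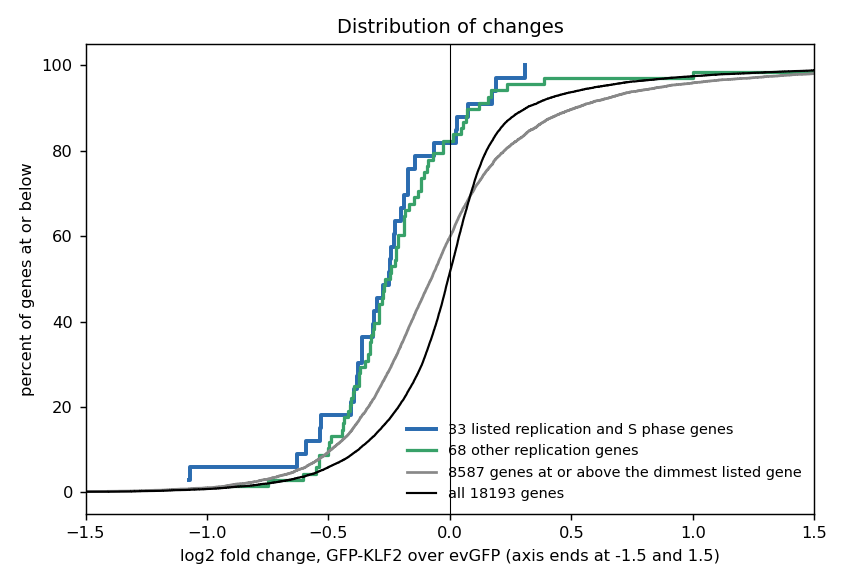
Distribution of log2 differences, GFP-KLF2 minus evGFP, for the 33 genes and the other replication genes, with medians of -0.25 and -0.26. The other curves are the 8587 genes at least as bright as the dimmest of the 33, with a median of -0.08, and all genes, at -0.01.

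In 28 of the 33 genes there was more than 1 probe set. These read different stretches of a transcript on the same arrays. Of the 81 probe sets 26 fell, 1 rose (the second of Ccne1) and 54 did not pass, while 7.58% of all single-gene probe sets fell. With the replicate number as a block 32 of the 81 fell, against 11.2% of all. Of the 69 with a mean log2 intensity of at least 6, 60 were negative, with a median of -0.30. The 12 dimmer ones had a median of -0.03 and 8 were negative. The share of negative probe sets over the whole array was not counted. Mcm3 had 4 further probe sets at -0.49 to -0.06, of which 2 fell. Mcm7, whose brightest did not pass, had 3 others at -0.37 to -0.29 that did not pass either, although 2 of those did with the replicate number as a block. For 8 genes, Mcm2, Mcm3, Mcm5, Mcm7, Gins2, Fen1, Rrm2 and Ccne1, the brightest probe set is of a design whose probes may also match other transcripts.

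**Figure D5:**
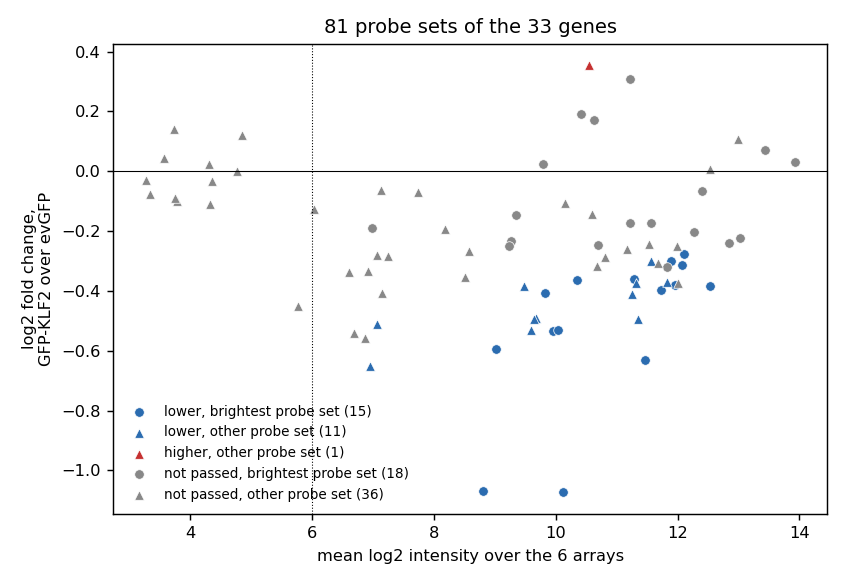
Log2 difference (vertical axis) of each of the 81 probe sets against its mean log2 intensity (horizontal axis). Blue marks those that fell, red the 1 that rose and grey those that did not pass. Circles are the brightest probe set of a gene and triangles the others. Probe sets under a log2 intensity of 6 lie around -0.03 in the median and the others around -0.30.

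Beyond the 33 genes, 68 of 72 other listed genes of the same roles were measured. Of these 18 fell, 3 rose and 47 did not pass, beside the 8.35% of all genes that fell and the 6.22% that rose. The median was -0.26 and 56 were negative, beside 9392 of all 18193 genes. The falling genes included further parts of the same machines. Pola2, the second subunit of polymerase alpha, was at -0.55 (limma, adjusted p = 0.00787), Orc2 at -0.54, Gins1 at -0.50 and Mcm10, an activator of the helicase, at -0.37. Dnmt1, the methyltransferase that UHRF1 guides, was at -0.42. Exo1, a repair exonuclease, was at -0.75 (adjusted p = 0.00422), Chek1, the checkpoint kinase, at -0.61 (adjusted p = 0.00536), and Cdc25a, a phosphatase that activates cyclin-dependent kinases, at -0.49.

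Nucleotide supply moved in both directions. Dctd, which deaminates dCMP toward thymidylate, measured 7.39, 7.25 and 7.27 in GFP-KLF2 cells against 8.35, 8.21 and 8.08 in evGFP cells (-0.91, limma adjusted p = 0.00207), and Dut, which removes dUTP, was at -0.50 (adjusted p = 0.0113). Samhd1, a hydrolase that degrades deoxynucleotides, measured 11.97, 12.00 and 11.38 in GFP-KLF2 cells against 10.59, 10.24 and 9.83 in evGFP cells. It rose by 1.57 ± 0.23 (SE, n = 3 each, limma adjusted p = 0.00677), and replicate 3 was the lowest array of each group. Rrm2b, the p53-induced small subunit of ribonucleotide reductase, rose by 0.39 (adjusted p = 0.0149). E2f2, an E2F family activator, measured 11.11, 11.01 and 10.85 against 10.19, 10.07 and 9.71, and rose by 1.00 (adjusted p = 0.00532). Over all genes 6.22% rose and 8.35% fell, and 9392 of 18193 were negative. E2f2 was 1 of 8 other S phase entry genes, of which 6 were negative, with a median of -0.23, and 2 fell. Those 2 were Cdc25a and E2f3, another E2F family activator, at -0.33 (adjusted p = 0.0251).

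Of these 21 changes, 7 passed with each array left out in turn, those of Pola2, Dctd, Samhd1, Exo1, Chek1, E2f2 and Cdc25a (adjusted p of 0.00356 to 0.0429). The other 14 were lost with at least 1 array left out. The count that fell ranged from 6 to 13 over those fits, was 9 with cyclic loess and 25 with the replicate number as a block. With the block 12.1% of all genes fell, against 8.35% in the main fit.

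The genes with an E2F spelling in their promoter were compared with those without, as a description. Of the 13 with one, 9 fell and the median was -0.38. Of the 15 without one, 4 fell, Ung among them, and the median was -0.17. Those 15 lack the 4 exact spellings, and other spellings were not searched. The groups also differ in role, since Mcm3, Mcm5, Mcm6 and Mcm7 are with a spelling and Ccne1 and E2f8 without. Of the 5 with no promoter in the table, 2 fell, with a median of -0.20. Over all genes 8.35% fell, and 15.4% of those at least as bright as the dimmest listed gene. The share that fell among all measured genes with an E2F spelling was not counted. Whether listed genes with and without a spelling differ was not tested. Among other replication genes with a promoter, 20 of 57 (35.1%) held an E2F spelling.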

How the data were processed

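RNA of 6 arrays (Affymetrix Mouse Genome 430 2.0; 3 GFP-KLF2 and 3 evGFP, grouped by their labels) was compared. The deposited intensity values were made by the authors with RMA (background correction, quantile normalization and probe set summary) and stand on a linear scale, and the authors tested them with limma, with versions not stated. Here their log2 was fitted with limma 3.58.1 in R 4.3.3, with 1 constant per group, 2-sided tests and an adjusted p under 0.046 over 45037 probe sets. The methods print this threshold as a percent, and that value was an alternative. The 64 control probe sets were removed. Quantile normalization sets arrays to a common distribution, so that a shift of most transcripts would not be seen. The number of arrays limits the precision. An exact permutation test of 3 against 3 cannot go below p = 0.1.

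Every one of the 33 genes is named. Of the other replication genes, up to 3 in each direction per role, with the largest change, could be named. The genes, lists and tests were chosen with earlier results of these data known. Same-numbered arrays deviated together from their group means over probe sets (r = 0.325, 0.442 and 0.466, against -0.380 to 0.0578 for unlike numbers). Deviations from a group mean cancel over its arrays, so that part of this contrast is built in. The main fit did not pair the arrays, and its calls ignore the replicate number. The number was used for the pair differences and as a block in an alternative fit, whose changed calls are given below. Gene names came from the platform annotation, and 4 of the 72 other listed genes were not analysed here. Fits were tested on simulated data.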

Additional observations from a re-analysis of the deposited data

How the results depend on the processing

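The count of genes that fell among the 33 (15) was 12 to 18 under quantile normalization, centring, an intensity trend, array weights, the other probe set rules, a filter on dim probe sets, a threshold of 0.05 and the replicate block. It was 8 with cyclic loess, 2 with a fold change of at least 2, 0 at an adjusted p under 0.00046 and 3 to 8 with 1 array left out. The share of all genes that fell also moved, from 8.35% in the main fit to 0.715% with that fold change and 3.24% without evGFP replicate 2. With cyclic loess that share was lower as well, as given above. Shares under the other settings, apart from the block, are not given here, so that these counts alone do not show stability. The count that rose (0) was 1 with cyclic loess, with the intensity trend, with the mean of all probe sets and with the replicate block. With that block, Mcm3 lost its call and Cdt1 and Ccne1 gained one, which left 15 lower and 1 higher, and 25 in place of 18 other replication genes fell. Over all genes the block also raised the shares, to 12.1% that fell and 8.58% that rose, from 8.35% and 6.22%. Probe sets that fell (26) numbered 10 with cyclic loess, 0 under 0.00046 and 4 to 10 with 1 array left out, and other replication genes 9, 0 and 6 to 13. The median over the 33 genes (-0.25) was -0.23 with array weights, -0.26 with centring, -0.17 with cyclic loess, -0.27 with the mean of all probe sets, -0.24 with quantile normalization, -0.26 without probe sets of mixed specificity and -0.30 to -0.23 with 1 array left out. Genes near 0 changed sign. Chaf1b was at -0.0085 without GFP-KLF2 replicate 1, -0.024 without GFP-KLF2 replicate 3 and -0.087 without evGFP replicate 2, over a range of -0.087 to 0.14 with 1 array left out. Pcna ranged from -7.53e-05 without evGFP replicate 3 to 0.073 without evGFP replicate 1, and was at -0.0095 with quantile normalization, and Slbp at 0.014 with cyclic loess. The cause of these shifts was not tested.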
